A study of Mus musculus with 8 samples.

Results

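The collagens described here are the fibrillar chains Col1a1, Col1a2, Col3a1, Col5a1 and Col5a2, the network chains Col4a1 and Col4a2, and the beaded-filament chains Col6a2 and Col6a3, measured in mouse mesenchymal stem cells with and without the local anaesthetic ropivacaine. They were chosen by Ensembl gene identifier from a list of 10 collagen genes, of which 9 matched 1 row each in the table of 17592 genes. Col6a1 was not analysed here. The gene symbols come from the list that chose the genes, since the deposited table holds identifiers alone.

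The cells came from bone marrow of mice of strain C57B6/J and were expanded in culture to passage 10. The data are 8 exon arrays (Affymetrix, 1 colour), 4 from cells given ropivacaine and 4 from control cells given no treatment, all collected at 24 h. Ropivacaine is an amide-type blocker of voltage-gated sodium channels. The sample annotation and the design text give the dose as 100 uM, although the treatment protocol gives the same figure in millimolar units, and the micromolar value is used here. Whether replicate arrays stand for different cultures or mice is not stated, so every p-value measures the spread between these arrays, which may be technical. The identity of the cells could not be checked against stromal or blood-cell markers, because the identifiers are not paired with symbols in the sources used here.

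Collagens are secreted proteins built from chains that wind around each other into a triple helix. Fibrillar collagens assemble outside the cell into the cross-striated fibrils that give bone, tendon and skin their tensile strength. Type IV collagen instead forms the sheet-like network of basement membranes, and type VI collagen forms beaded microfilaments close to the cell surface. Marrow stromal cells and their osteoblast descendants are major producers of type I collagen, and type III collagen is a main component of the reticular fibres of marrow.

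Values are the deposited log2 expression values, so a difference of 1 is a doubling on the array's scale. The 8 columns shared a median of 6.91 and quartiles of 5.73 and 8.42. The mean signals of the 9 collagens lay between the 59.5th percentile of all genes for Col4a2 and the 91.9th for Col6a3. Levels are not compared between genes, because each gene has its own probes.

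Col3a1, a fibrillar collagen, fell in ropivacaine-treated cells. Its level was 80.3% of the control level, and it was the only collagen of the 9 called (limma, p adjusted over all genes by Benjamini-Hochberg, threshold 0.05). In all, 8 of the 9 log2 fold changes (ropivacaine minus control) were below 0, against 52.3% of all genes, and the exception was Col4a1. The median log2 fold change was -0.14 for the 9 collagens and -0.00475 for all 17592 genes. By class, the median was -0.18 for the 5 fibrillar chains, -0.16 for the 2 beaded-filament chains and -0.01 for the 2 network chains.

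For the 1 collagen called in 9, the background over all genes was 0.404% at the same threshold in either direction, and 0.119% were called lower. Before adjustment, 6 of 9 collagens had a limma p below 0.05, all lower with ropivacaine, against 4.41% of all genes that were lower at that p and 9.74% in either direction. The 4 ropivacaine values lay entirely below the 4 control values for 5 of the 9, namely Col1a1, Col1a2, Col3a1, Col6a2 and Col6a3, against 3.15% of all genes, or 6.7% counting separation in either direction. All these shares include dim genes, while the 9 collagens all lay above the median signal. With the dimmest 50% of genes left out, 179 genes were called, against 71 with all genes in the fit, and 2 collagens. Since the 179 came from the brighter 50% alone, the share called there was higher than the 0.404% over all genes. The changes of the collagens were small in size. Only Col3a1, Col1a1 and Col6a2 had a log2 fold change of -0.2 or below, a size reached by 3.52% of all genes. The list of collagens was drawn up with earlier results of these data known. The counts set against all genes are therefore a description and do not test an excess. In cultures measured in bulk, fewer collagen-producing cells and less collagen RNA per cell cannot be told apart.

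**Figure D1:**
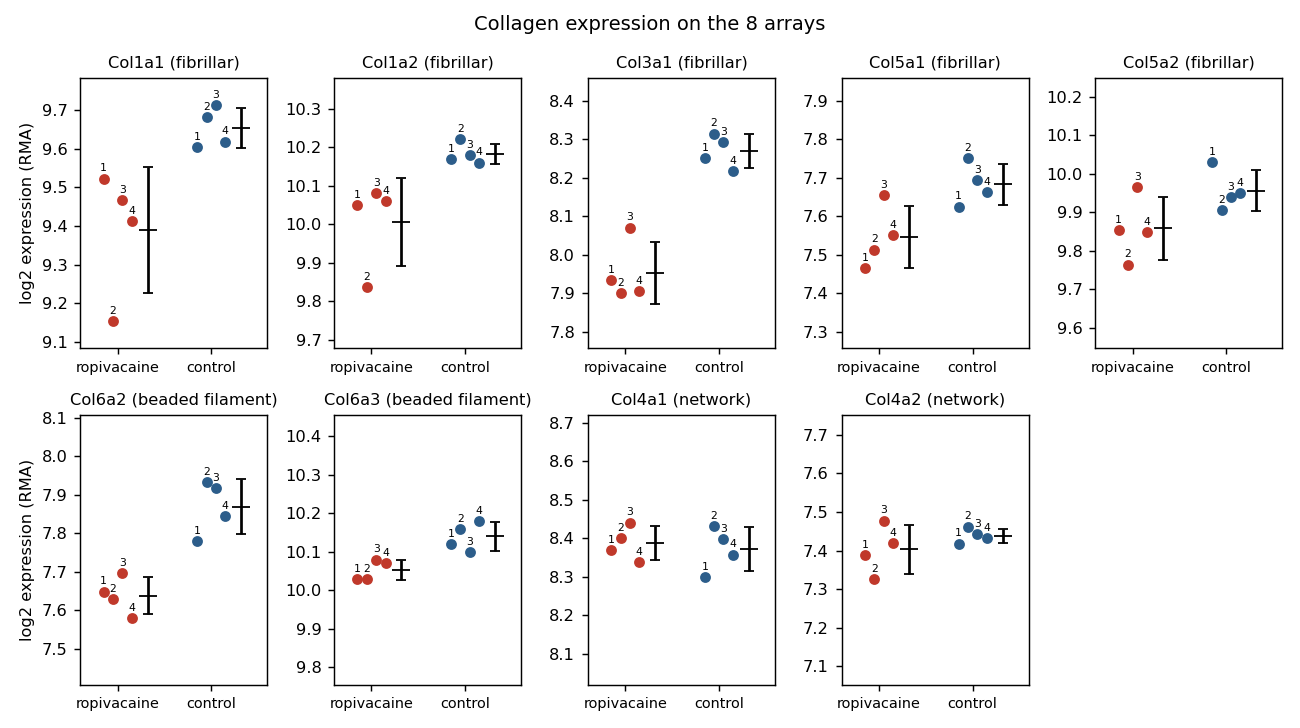
Log2 expression of the 9 collagens, 1 panel per gene, with ropivacaine arrays in red and control arrays in blue. Points are single arrays with their replicate number, the dash and bar are the mean and SD of 4 arrays, and every panel spans 0.7 log2 units. For Col3a1 the ropivacaine points reach at most 8.071 and the control points start at 8.217, while for Col4a1 the groups overlap.

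Col3a1 (ENSMUSG00000026043) encodes the single chain type of collagen III, a homotrimer that forms fibrils together with type I collagen in extensible tissues and in healing wounds. Its log2 values were 7.935, 7.901, 8.071 and 7.905 on the ropivacaine arrays, against 8.252, 8.315, 8.293 and 8.217 on the control arrays. The groups were separated by 0.146, and ropivacaine replicate 3 lay closest to the controls. The means were 7.95 ± 0.08 with ropivacaine and 8.27 ± 0.04 in control cells (SD, n = 4 each). This gives a log2 fold change of -0.32 (SE 0.05, 95% interval -0.43 to -0.20), with a limma adjusted p of 0.048. By p-value Col3a1 stood 57th among the 17592 genes, and by size of fall 211th. The call sat close to the threshold. It held without ropivacaine replicate 3 (limma adjusted p = 0.034) and was lost when any 1 of the other 7 arrays was left out, with limma adjusted p-values from 0.119 to 0.161, while the log2 fold change stayed between -0.36 and -0.30.

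The Col3a1 promoter is shown because this was the called member. RefSeq places the 250 bases before its annotated start at chr1:45311288-45311537 on the plus strand of GRCm38.p6. It is printed with that of Col1a2, a fibrillar chain whose product shares fibrils with collagen III, and that of Col6a2, which had the next smallest p-value of the 9. Capitals mark exact matches on either strand to 4 short motifs: CCAAT (the core bound by NF-Y), GGGCGG (the GC box bound by Sp1), TATAAA (the TATA box) and CAGAC (the core bound by Smad proteins, which carry TGF-beta signals). No match overlaps another in these 3 windows.
Col3a1: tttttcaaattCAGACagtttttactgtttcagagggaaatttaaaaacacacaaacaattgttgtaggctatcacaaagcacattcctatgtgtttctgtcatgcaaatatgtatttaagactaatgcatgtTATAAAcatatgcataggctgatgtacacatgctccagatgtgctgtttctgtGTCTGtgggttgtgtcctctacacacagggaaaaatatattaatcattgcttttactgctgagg
Col1a2: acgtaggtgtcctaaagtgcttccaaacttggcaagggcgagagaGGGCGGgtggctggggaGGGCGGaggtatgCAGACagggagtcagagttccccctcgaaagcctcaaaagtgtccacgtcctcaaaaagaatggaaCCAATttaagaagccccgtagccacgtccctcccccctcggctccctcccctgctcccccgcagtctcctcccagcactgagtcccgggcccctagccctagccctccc
Col6a2: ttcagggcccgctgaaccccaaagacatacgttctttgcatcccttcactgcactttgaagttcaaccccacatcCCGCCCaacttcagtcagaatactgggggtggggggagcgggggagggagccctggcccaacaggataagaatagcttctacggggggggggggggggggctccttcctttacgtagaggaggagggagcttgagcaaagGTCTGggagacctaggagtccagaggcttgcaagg

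The Col1a2 window is chr6:4505368-4505617 on the plus strand and the Col6a2 window is chr10:76623631-76623880 on the minus strand, at the more upstream of its 2 annotated starts. The 3 windows differ in base composition, with 35.2% G and C for Col3a1, 62% for Col1a2 and 59.2% for Col6a2, against a median of 52.4% over all 32851 RefSeq windows. The Smad-binding core is the motif found in all 3, but it is absent from the window of the other annotated Col6a2 start, which held GC boxes alone. It lies 239 to 235 and 64 to 60 bases before the Col3a1 start, 175 to 171 bases before the Col1a2 start and 35 to 31 bases before the Col6a2 start. These 5 letters occur in 42.2% of all windows, so their presence is common. The GC box was in 32.7% of all windows, the CCAAT core in 33.8% and TATAAA in 12.4%. The TATAAA match of Col3a1 lies 117 to 112 bases before the annotated start, and whether it works as a TATA box was not tested. In all, 8 of the 10 listed collagens had a window, and 6 of their 9 windows held the Smad-binding core. Besides the 3 printed, these were the windows of Col5a1, Col6a3 and the network chain Col4a2, while those of Col4a1 and Col6a1 lacked it. Whether the motif goes with the changes was not tested.

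Type I collagen, the main fibril-forming protein of bone, is a heterotrimer of the chains encoded by Col1a1 and Col1a2. Col1a1 (ENSMUSG00000001506) had log2 values of 9.523, 9.153, 9.468 and 9.412 with ropivacaine, against 9.604, 9.682, 9.713 and 9.619 in control cells. Every ropivacaine value was lower than every control value, and ropivacaine replicate 2 lay farthest down. Its log2 fold change was -0.27 (SE 0.08, 95% interval -0.44 to -0.09), 83.2% of the control level, and it was not called (limma adjusted p = 0.292).

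Col1a2 (ENSMUSG00000029661) had log2 values of 10.05, 9.837, 10.08 and 10.06 with ropivacaine, against 10.17, 10.22, 10.18 and 10.16 in control cells. The groups again did not overlap and replicate 2 was again the lowest. The log2 fold change was -0.18 (SE 0.06, 95% interval -0.31 to -0.04), 88.5% of the control level, and it too was not called (limma adjusted p = 0.355). Without ropivacaine replicate 2 the log2 fold changes were -0.19 for Col1a1 and -0.12 for Col1a2. The 2 chains deviated together on ropivacaine replicate 2, while on ropivacaine replicates 1, 3 and 4 the order of the arrays differed between them. The correlation that follows was not computed without replicate 2. It rests largely on that array, where both chains lay farthest from their group means. By the correlation of deviations from the group means over the 8 arrays, which include the low ropivacaine replicate 2 of both chains, Col1a2 ranked 27th among the 17591 other genes in its likeness to Col1a1 (r = 0.92, given as a description). By the same measure Col4a2 ranked 4815th for Col4a1 (r = 0.39), Col5a2 5871st for Col5a1 (r = 0.26) and Col6a3 7941st for Col6a2 (r = 0.07).

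Type V collagen is a minor fibrillar collagen that nucleates type I fibrils and limits their diameter, and Col5a1 and Col5a2 encode its main chains. Col5a1 (ENSMUSG00000026837) had log2 values of 7.465, 7.513, 7.655 and 7.550 with ropivacaine, against 7.625, 7.750, 7.694 and 7.662 in control cells. The groups overlapped only because ropivacaine replicate 3 exceeded control replicate 1. The log2 fold change of Col5a1 was -0.14 (SE 0.05, 95% interval -0.25 to -0.02; limma adjusted p = 0.428).

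Col5a2 (ENSMUSG00000026042) had log2 values of 9.854, 9.764, 9.965 and 9.848 with ropivacaine, against 10.03, 9.905, 9.939 and 9.950 in control cells. Ropivacaine replicate 3 lay inside the control range, and the other 3 arrays lay below it. Its log2 fold change was -0.10 (SE 0.05, 95% interval -0.22 to 0.02; limma adjusted p = 0.601). Col5a2 is the next protein-coding gene after Col3a1 on chromosome 1 in the RefSeq gene order, and the 2 neighbours had log2 fold changes of -0.10 and -0.32.

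Type VI collagen links the pericellular matrix to cells and is assembled from the products of Col6a1, Col6a2 and larger chains such as that of Col6a3. Col6a2 (ENSMUSG00000020241) had log2 values of 7.649, 7.629, 7.697 and 7.580 with ropivacaine, against 7.779, 7.934, 7.917 and 7.845 in control cells. The groups were separated by 0.082, with a log2 fold change of -0.23 (SE 0.05, 95% interval -0.34 to -0.12), 85.3% of the control level. It stood 170th of the 17592 genes by p-value and was not called (limma adjusted p = 0.117). With the dimmer 50% of genes left out of the test it was called (limma adjusted p = 0.035). Over all 17 alternatives its limma adjusted p ran from 0.035 to 0.316.

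Col6a3 (ENSMUSG00000048126) had log2 values of 10.03, 10.03, 10.08 and 10.07 with ropivacaine, against 10.12, 10.16, 10.10 and 10.18 in control cells. The groups lay apart by only 0.02. The log2 fold change was -0.09 (SE 0.04, 95% interval -0.17 to -0.00399), 94.1% of the control level (limma adjusted p = 0.490).

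Type IV collagen heterotrimers built from the products of Col4a1 and Col4a2 are the common backbone of basement membranes. The 2 genes lie head to head on chromosome 8, and RefSeq places their annotated starts 21 bases apart on opposite strands, so that the sequence before each start lies within its partner gene. Col4a1 (ENSMUSG00000031502) had log2 values of 8.369, 8.400, 8.441 and 8.338 with ropivacaine, against 8.299, 8.432, 8.398 and 8.358 in control cells. The groups overlapped, and the highest value was a ropivacaine array and the lowest a control array. The log2 fold change was 0.02 (SE 0.04, 95% interval -0.08 to 0.11; limma adjusted p = 0.949), an interval of 94.3% to 108% of the control level.

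Col4a2 (ENSMUSG00000031503) had log2 values of 7.388, 7.325, 7.478 and 7.420 with ropivacaine, against 7.418, 7.462, 7.442 and 7.432 in control cells. Its log2 fold change was -0.04 (SE 0.04, 95% interval -0.13 to 0.06; limma adjusted p = 0.852), an interval of 91.3% to 104% of the control level. Both intervals lie above 80.3%, the level of Col3a1 relative to control.

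**Figure D2:**
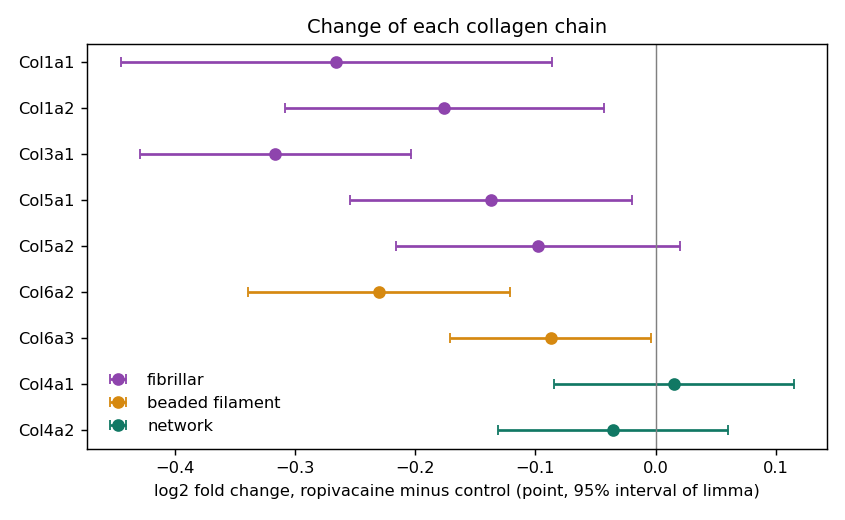
Log2 fold change, ropivacaine minus control, of each collagen with its 95% interval from limma (4 arrays per group), coloured by class. The intervals of Col1a1, Col1a2, Col3a1, Col5a1, Col6a2 and Col6a3 end below 0, before adjustment over all genes, and those of Col5a2, Col4a1 and Col4a2 include 0.

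The fibrillar and beaded-filament chains were also set against the network chains by the difference of 2 log2 values within each array, for 7 chains against Col4a1 and Col4a2, 14 differences in all. These comparisons were chosen after the values had been seen and share arrays and network chains, so they are given as a description with no test. The mean difference, ropivacaine minus control, was below 0 in all 14. For Col1a1, Col1a2, Col3a1, Col5a1 and Col6a2 the within-array differences did not overlap between groups against either network chain, and for Col5a2 and Col6a3 they overlapped against both. The most negative was Col3a1 minus Col4a1, at -0.33, and that of Col5a1 minus Col4a2 was -0.10. Whether the classes differ in their response was not tested.

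The chains of 1 molecule were compared in the same way in 4 pairs. For Col6a2 minus Col6a3 the difference in change was -0.14 (interval -0.31 to -0.04), with an exact permutation p of 0.0286, which became 0.114 after adjustment over the 4 pairs and so did not pass. The within-array differences of this pair did not overlap between groups. For Col1a1 minus Col1a2 it was -0.09 (interval -0.22 to 0.04; exact permutation p = 0.114, adjusted p = 0.229). For Col4a1 minus Col4a2 it was 0.05 (interval -0.05 to 0.19; exact permutation p = 0.257, adjusted p = 0.343). For Col5a1 minus Col5a2 it was -0.04 (interval -0.23 to 0.15; exact permutation p = 0.514, adjusted p = 0.514). No pair passed after adjustment, and since 0.0286 is the smallest p the 70 relabellings allow, a single pair out of 4 could not have passed.

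Chains of types IV and V, whose groups overlapped, were correlated over the 8 arrays, and any difference between the groups remains in these correlations. By deviations from the group means, r was 0.26 for Col5a1 and Col5a2 and 0.39 for Col4a1 and Col4a2. Col5a1 and Col5a2 had Pearson's r = 0.61 (exact permutation p = 0.109, adjusted over 4 pairs p = 0.146) and Spearman's rho = 0.45 (exact permutation p = 0.267, adjusted p = 0.267), and r was 0.18 without the 2 arrays farthest from the median of Col5a1. Col4a1 and Col4a2 had r = 0.28 (exact permutation p = 0.508, adjusted p = 0.508) and rho = 0.50 (exact permutation p = 0.216, adjusted p = 0.267), and r was 0.11 without the 2 farthest arrays. The head-to-head genes thus showed no correlation that passed the test. For types I and VI the groups did not overlap, so no correlation of the values over all arrays is given. Their p-values still entered the adjustment over 4 pairs.

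**Figure D3:**
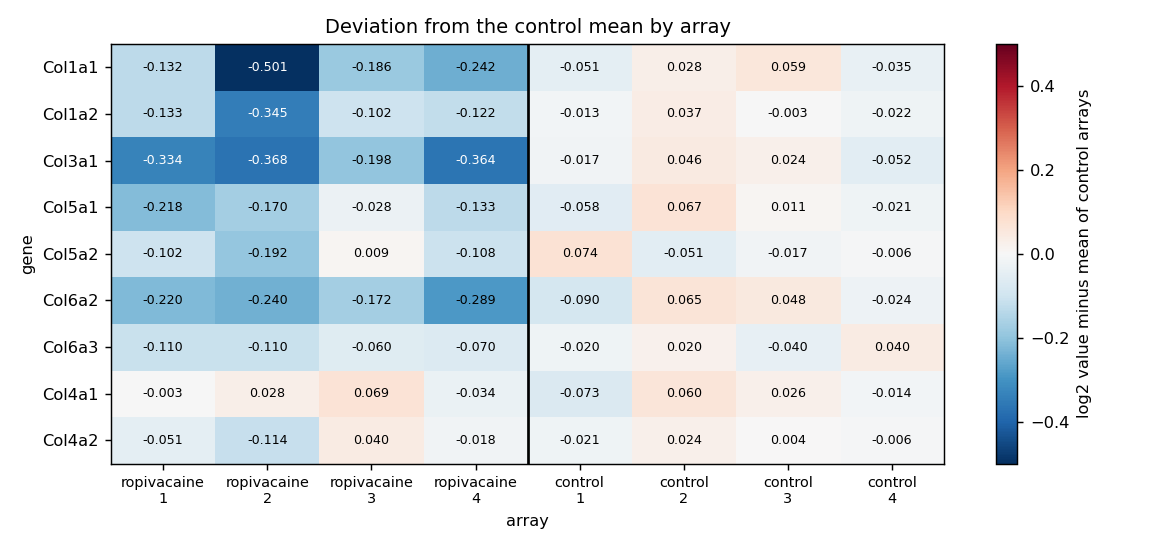
Log2 value minus the mean of the 4 control arrays, for each collagen (rows) and array (columns), with ropivacaine arrays on the left and control arrays on the right of the line. The lowest value is Col1a1 on ropivacaine replicate 2, at -0.501, and ropivacaine replicate 3 is the palest of the ropivacaine columns.

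The 4 ropivacaine arrays were not alike. Replicates 1 and 4 lay below the control mean for 9 of 9 collagens, replicate 2 for 8 of 9 and replicate 3 for 6 of 9. The median deviation of the 9 collagens from the control mean was -0.13, -0.19, -0.06 and -0.12 on replicates 1 to 4. Replicate 3 had the highest ropivacaine value for 8 of the 9 collagens, the network chains among them, and replicate 2 had the lowest for 6, tied with replicate 1 for Col6a3. Among the control arrays, replicate 2 was the highest for 6 of the 9 and replicate 1 the lowest for 5. Control replicate 2 and ropivacaine replicate 3 also had the lowest array weights over all genes, 0.580 and 0.708. Their part in the collagen result was not tested beyond using these weights and leaving them out. With array weights in the fit, 1 collagen was called (limma adjusted p = 0.033 for Col3a1). Without both of these arrays, 0 collagens were called (limma adjusted p = 0.082 for Col3a1) and 6 of 9 were at an unadjusted limma p below 0.05. In that setting 4.25% of all genes were lower at that p, as were the 6 collagens. The ropivacaine values lay below all control values for 7 of 9, the fibrillar and beaded-filament chains, in that setting, against 7.91% of all genes. The same 7 did so without ropivacaine replicate 3 alone, against 5.67%. Since replicate 3 was the highest ropivacaine array for 8 of the 9, the rise from 5 to 7 is partly built in. The shares of all genes carry no such choice of array. Without control replicate 2 alone the count stayed at 5, but the share of all genes in that setting was not computed.

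**Figure D4:**
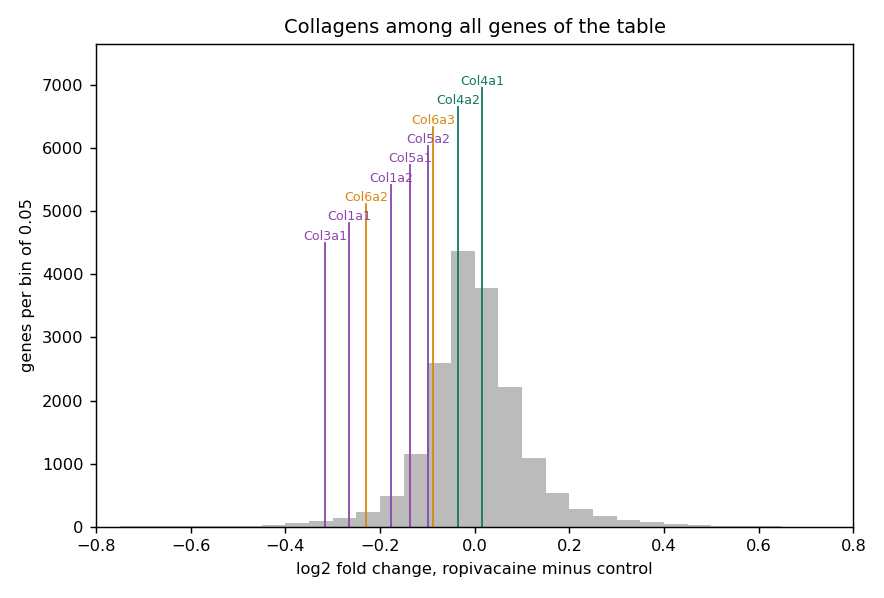
Number of genes per bin of 0.05 in log2 fold change (ropivacaine minus control) among the 17592 genes, grey bars, with a vertical line for each collagen coloured by class as fibrillar (purple), beaded filament (orange) or network (green). The lines run from -0.32 for Col3a1 to 0.02 for Col4a1, and the 2 network chains lie nearest the centre of the distribution.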

How the data were processed

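The authors deposited log2 expression values, 1 row per gene and 1 column per array, which the submitters' processing notes credit to RMA. This method subtracts background, gives the arrays a common distribution and summarises probes per gene, so overall differences in signal between arrays are removed. No source used here gives its version, the genome build or the probe set definition. No batch or scan date is given and background is unknown. The number of arrays limits the precision.

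Arrays were grouped by title. All 17592 genes of the 8 arrays were fitted with limma 3.58.1 in R 4.3.3 (default moderation, two-sided, no covariate, no filter), with a call at 0.05 after Benjamini-Hochberg adjustment. Percent of control is the back-transformed log2 fold change. Pairs of chains were compared by exact permutation over 70 relabellings. All 10 listed genes were to be named. The fit was tested on simulated data. Members and lists were chosen with earlier results of these data known. Lists of collagen-processing, receptor and cell-marker genes could not be applied, because the RefSeq table (GRCm38.p6) lists no Ensembl identifiers. Alternatives were other scalings, moderation settings, filters, array weights, a replicate block and left-out arrays. Figures used matplotlib 3.10.9.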

Additional observations from a re-analysis of the deposited data

Results flagged for a closer look

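Col1a2 on ropivacaine replicate 2 had a log2 value of 9.837, while the other 3 ropivacaine arrays lay between 10.05 and 10.08. The gap was 0.877 of the group's range, above Dixon's 95% critical value for 4 samples. The test was made on 18 sets of 4 arrays and marked 1, where chance marks about 1 in 20. Col1a2 had a log2 fold change of -0.12 with that array left out and was again not called.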

How the results depend on the processing

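Of the 9 collagens, 1 was called in the fit reported and also under quantile normalization, median centring, an intensity trend, robust moderation, array weights and without the dimmest 25% of genes. The count was 2 without the dimmest 50%, 0 with the replicate number as a block, 0 to 1 with 1 array left out, 0 when control replicate 2 and ropivacaine replicate 3 were both dropped, and 6 at an unadjusted p. Over all genes the count of 71 became 135 with an intensity trend, 114 and 179 without the dimmest 25% and 50%, 3 with the replicate block, 15 to 31 with 1 array left out, 7 with both dropped and 1714 at an unadjusted p. The limma adjusted p of Col3a1 ran from 0.011 to 0.161 over 17 alternatives and was 0.151 with the replicate block. Same-numbered arrays deviated with correlations of 0.138, 0.009, 0.056 and 0.070, and for 4 of 8 arrays the best match bore the same number, so the numbers were not taken as pairs. Collagens at an unadjusted p numbered 4 to 7 with 1 array left out. The shares of all genes at that p were not computed for these settings, so the range cannot be read against them. The log2 fold change of Col4a1 ran from -0.009 to 0.035 with 1 array left out and changed sign without control replicate 1 (-0.009) and without ropivacaine replicate 3 (-0.00275). The difference in change of Col5a1 and Col5a2 ran from -0.083 to 0.000667, and was above 0 without control replicate 2. What causes these changes was not tested, apart from fewer genes or arrays in the fit. For the 7 collagens other than Col3a1 and Col4a1, 118 of 119 values kept direction and side of the threshold, the exception being Col6a2 without the dimmest 50%. Pairs with Col6a1 were not run.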
